A study of Mus musculus with 40 samples.

Results

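Morphine was compared with saline in the medial prefrontal cortex of adult female mice that all received antibiotics. The comparison used 10 of the 40 libraries of the series, chosen by their labels alone: 5 libraries labelled adult, Abx Morphine and 5 labelled adult, Abx Saline, where Abx stands for oral antibiotics. The table's column for morphine library 3 adds a suffix to the library name that no label explains, and it was taken as that library because no other column carries the name. The mice were wild type females of the inbred strain C57BL/6J and entered the experiment on postnatal day 55. Over 5 days they received subcutaneous injections of either saline or 15 mg/kg morphine. No source used here names the antibiotics or the time of day at which tissue was taken. The rest of the series holds adults on water (H2O) and adolescents that started on postnatal day 25, of which 2 pairs of groups serve as references below: adults on water with saline or morphine, and adolescents on antibiotics with saline or morphine, 5 libraries each. None of these references shares a library with the 10, although all 40 entered 1 model of the spread. The labels do not state that the libraries of a group came from separate mice, and p-values therefore reflect the spread among these libraries alone, which may be technical.

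Morphine acts mainly through the mu opioid receptor, encoded by Oprm1, a receptor coupled to inhibitory G proteins that lowers the excitability of the neurons that carry it. Immediate early genes such as Fos, Arc and Nr4a1 are transcribed within minutes of neuronal or growth factor stimulation, without new protein synthesis, and their transcripts are short-lived. In the circadian clock, the activators CLOCK and BMAL1 (encoded by Arntl) bind E-boxes in DNA and switch on the Period and Cryptochrome repressors and the output factors DBP, TEF and HLF, while the repressors in turn shut the activators down. Both systems are at work in cortical neurons, and clock transcripts there rise and fall over the day.

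The libraries held 8.97 to 10.27 M counts (M for mega), against 8.64 to 12.1 M over all 40. At these depths 3 counts stood for 0.292 to 0.335 CPM, the unit of all levels here (a count scaled to the TMM-adjusted size of its library), and such limits cover counting error only. Neuronal markers were abundant, with Slc17a7, the vesicular glutamate transporter of cortical excitatory neurons, between 1516 and 1815 CPM, whereas only 3 of 10 choroid plexus and ependymal markers were high enough to be tested. On the first principal component of these 10 libraries, with 19.13% of the variance, saline library 3 and morphine library 5 lay at opposite ends, at 21.7 and -15.82. The share of counts from mitochondrially encoded genes was 4.114% to 5.348% with saline and 3.798% to 4.549% with morphine. The summed level of 5 red blood cell markers was 42.1 to 54.1 CPM with saline and 55.8 to 74.4 CPM with morphine, so these groups did not overlap. Its part in the results below was not tested.

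On antibiotics, 5 of 11 clock repressor genes and all 3 clock output genes tested were higher, and 7 of 32 immediate early genes were lower, in adults given morphine than in those given saline. Of 17880 genes tested with edgeR, 38 changed at an adjusted p under 0.05, which is 0.213% of them. In 18 genes (0.101%) the level rose and in 20 (0.112%) it fell. At an unadjusted p under 0.05 there were 1258 genes (7.04%), 610 higher (3.41%) and 648 lower (3.62%). The CPM of the 2 groups did not overlap in 12 of the 18 genes that rose and in 16 of the 20 that fell, against 243 genes (1.36%) over all genes tested, 123 higher (0.688%) and 120 lower (0.671%). Fold changes were modest, with a median size of 0.49 on the log2 scale over the 38 genes. The number of genes called depended on single libraries. It was 15, 20 and 21 without saline libraries 2, 3 and 5, and 16, 17 and 21 without morphine libraries 2, 3 and 5. Without both saline library 3 and morphine library 5 it was 20. In 11 genes the call was kept without each library in turn and under every other setting tried: Dbp, Tef, Hlf, Cry1, Rbm3os, Klf10, Csrnp1, Stk40, Arntl, Cdkn1a and Dusp6. The other 27 genes lost it without at least 1 library. In bulk tissue, fewer cells of a type and less RNA per cell cannot be told apart.

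**Figure D1:**
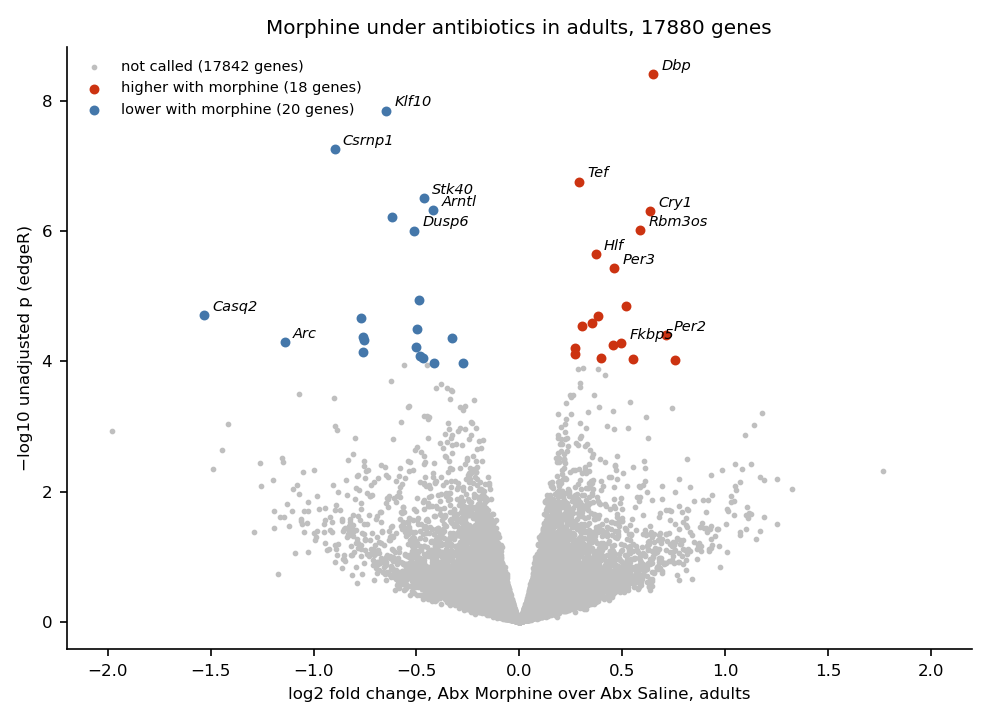
Each point is 1 of the 17880 genes tested, with the log2 fold change of morphine over saline in adults on antibiotics on the horizontal axis and the negative log10 of the unadjusted p on the vertical axis. The 18 genes that rose are red and the 20 that fell are blue, with Dbp, Tef and Cry1 highest on the right and Klf10 and Csrnp1 highest on the left.

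The 3 output factors of the clock rose together. Dbp (ENSMUSG00000059824.13), a transcription factor whose message tracks E-box activity, was read at 77.2, 91.4, 89.1, 101 and 88.6 CPM in saline libraries 1 to 5 and at 133, 138, 146, 161 and 123 CPM in morphine libraries 1 to 5. Every morphine library stood above every saline library. The mean was 89.5 ± 8.46 CPM with saline and 140.3 ± 14.4 CPM with morphine (SD, n = 5 each), a 1.57-fold rise (log2 0.65 ± 0.09, SE; edgeR adjusted p = 6.92e-05), the lowest of the comparison. Tef (ENSMUSG00000022389.16) lay between 321 and 374 CPM with saline and between 414 and 457 CPM with morphine, without overlap. Its rise was small but even, 1.22-fold (log2 0.29 ± 0.05, SE; edgeR adjusted p = 0.000768). Hlf (ENSMUSG00000003949.17), the third of these factors, was at 228, 225, 209.6, 203 and 242 CPM with saline and at 243, 297, 297, 308 and 288 CPM with morphine. Morphine library 1 lay just above saline library 5, and the other 4 lay well above all saline libraries. Hlf rose 1.29-fold (log2 0.37 ± 0.07, SE; edgeR adjusted p = 0.00365).

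Among 11 clock repressors, 5 rose and 0 fell at an adjusted p under 0.05, while at an unadjusted p under 0.05 there were 6 higher and 2 lower, Nfil3 and Nr1d1. Over all genes tested, 0.101% rose and 0.112% fell at the adjusted mark. At the unadjusted mark 3.41% were higher and 3.62% lower. Cry1 (ENSMUSG00000020038.11), a Cryptochrome that blocks the CLOCK and BMAL1 pair, was at 12.6, 14.6, 13.7, 15.4 and 14.4 CPM with saline and at 22.0, 20.9, 23.1, 22.3 and 21.7 CPM with morphine. The groups were far apart relative to their spread, and Cry1 rose 1.56-fold (log2 0.64 ± 0.11, SE; edgeR adjusted p = 0.00125). The Period gene Per2 was at 43.2, 36.3, 32.5, 52.9 and 40.8 CPM with saline and at 63.9, 65.6, 70.2, 67.0 and 70.4 CPM with morphine. The morphine libraries were close to one another and the saline libraries were more scattered, without overlap. Per2 rose 1.64-fold (log2 0.71 ± 0.15, SE; edgeR adjusted p = 0.0333). Per3 lay between 46.3 and 62.9 CPM with saline and between 66.0 and 95.2 CPM with morphine, where library 5 was highest, and rose by a log2 of 0.46 ± 0.09 (SE; edgeR adjusted p = 0.0054). Other repressors of E-box transcription, Bhlhe41 at 46.0 ± 5.92 against 59.9 ± 6.81 CPM and Ciart at 17.0 ± 2.5 against 24.9 ± 3.72 CPM (SD, n = 5 each, saline first), rose with overlapping groups (edgeR adjusted p = 0.0224 and 0.0464).

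Several clock genes did not pass the test. Nr1d2, which encodes the nuclear receptor REV-ERB beta, was between 102 and 116 CPM with saline and between 120 and 135 CPM with morphine, without overlap (log2 0.25 ± 0.07, SE; edgeR adjusted p = 0.111). Nfil3, which competes with DBP, TEF and HLF for the D-box, went the other way from most repressors, with 5.41 to 7.9 CPM with saline and 3.54 to 5.55 CPM with morphine (log2 -0.53 ± 0.18, SE; edgeR adjusted p = 0.398). The REV-ERB alpha gene Nr1d1 had a log2 fold change of -0.13 ± 0.06 (SE; 0.616) and Per1 one of -0.04 ± 0.11 (SE; 0.981), with ranges of 142 to 179 CPM for Per1 with saline and 136 to 177 CPM with morphine. On the activating side, Arntl (ENSMUSG00000055116.9) fell. It was at 36.0, 35.0, 34.8, 28 and 37.6 CPM with saline and at 23.8, 27.9, 24.2, 25.9 and 26.4 CPM with morphine, and the only near contact was between saline library 4 and morphine library 2. The log2 fold change was -0.42 ± 0.07 (SE; edgeR adjusted p = 0.00125). Its partner Clock was at -0.14 ± 0.07 (SE; 0.737) and the related Npas2 at -0.12 ± 0.08 (SE; 0.824). The activators did not all go down: of 6 tested, 4 had negative and 2 positive log2 fold changes, from -0.42 to 0.5. At an adjusted p under 0.05, 1 of the 6 fell and 0 rose.

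Over the 20 tested genes of the clock lists, 8 rose and 1 fell, against 0.101% and 0.112% of all genes. Their median log2 fold change was 0.23, against 0.0 over all genes. The count of 8 became 5 without saline library 1, 2 or 5, 4 without morphine library 5, and 5 without both saline library 3 and morphine library 5. Per3 lost its call without morphine library 5 (edgeR adjusted p = 0.0581). Per2 lost it without 8 of the 10 libraries, that is without any except saline library 4 and morphine library 1, with an adjusted p of up to 0.15. Ciart lost it without any library except saline library 4 and morphine library 4 (up to 0.19), and Bhlhe41 without saline libraries 1, 2, 4 and 5 and morphine libraries 4 and 5 (up to 0.14). Exons of Dbp, Tef, Arntl and Bhlhe41 overlap genes on the opposite strand, for Dbp the gene Sphk2 that also rose. No source used here says whether counting used the strand, so how reads of such pairs were assigned is not known and their values are uncertain.

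**Figure D2:**
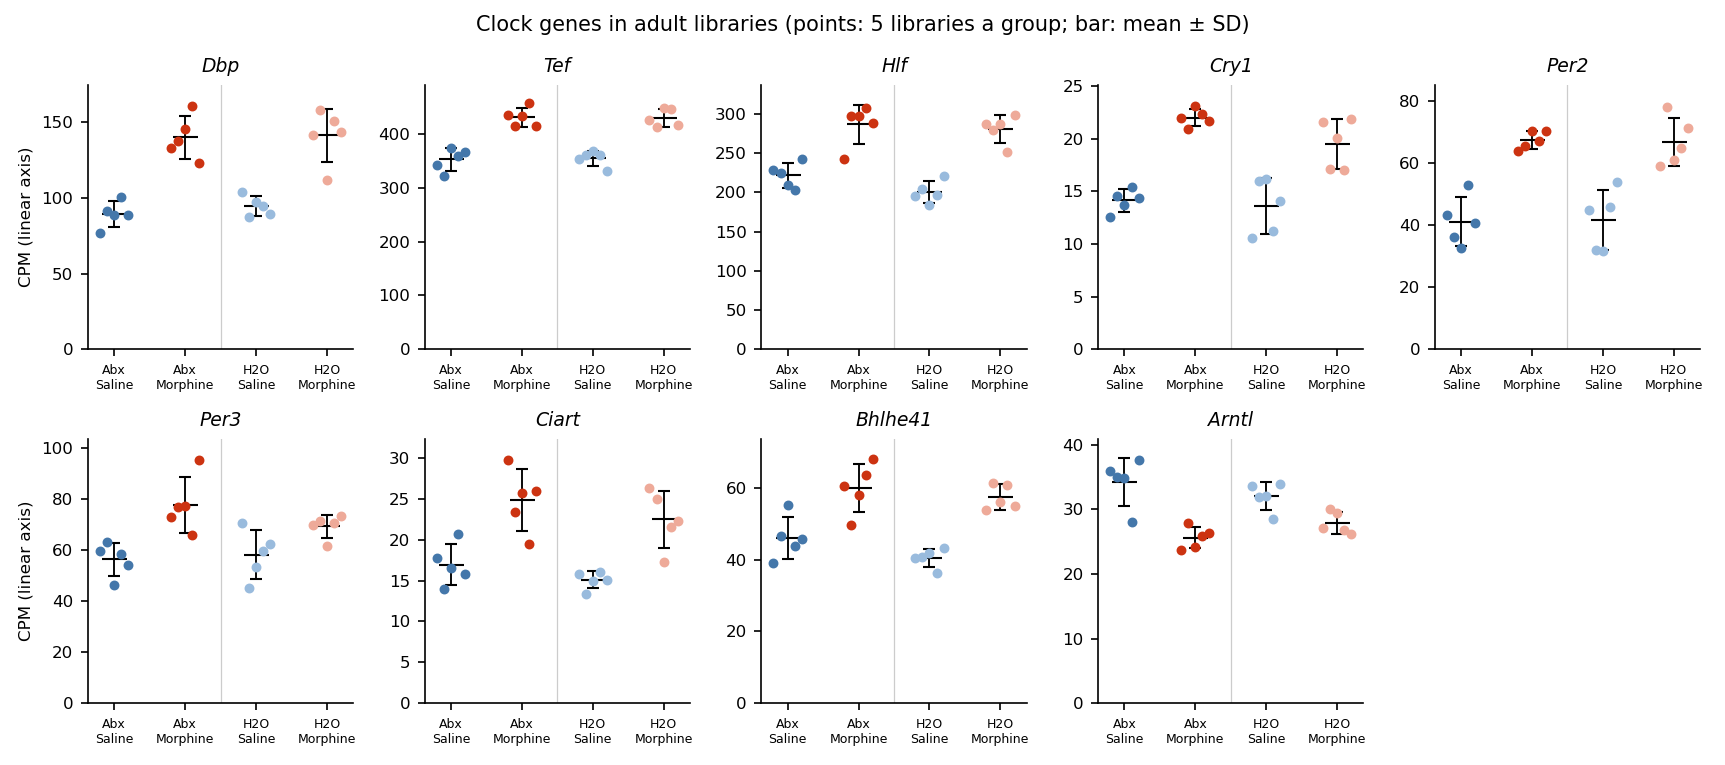
Points are the CPM of single adult libraries on linear axes from 0, with bars for the mean ± SD of 5 libraries, for clock genes in the antibiotics groups (left of the line in each panel) and the water groups (right of it). Dbp, Tef, Hlf, Cry1, Per2 and Per3 are higher and Arntl is lower in the morphine libraries on antibiotics.

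The letters of the E-box were looked for in RefSeq promoters (build GRCm38.p6), taken as the window from 250 bases before to 50 after each annotated start, because E-boxes are the sites through which the clock activators act. The E-box searched was CACGTG, which reads the same on both strands, and the D-box, the site of DBP, TEF and HLF, was TTATGTAA or TTACGTAA on either strand. The cAMP response element TGACGTCA, which reads the same on both strands, and the CArG box, the site of serum response factor at many immediate early genes, were searched as well. Of the genes that rose, 14 of 18 had such a promoter, and 7 of these 14 (50%) held an E-box in at least 1 window: Bhlhe41, Ciart, Cry1, Fkbp5, Net1, Rbm3os and Tef. Among them Fkbp5, Net1 and Rbm3os are not in the clock lists. The clock output genes Dbp and Hlf had no CACGTG in their windows, and Per2 had no such promoter. Of the genes that fell, 12 of 20 had a promoter and 1 held an E-box (8.33%), the gene Otud1. Over all 12025 tested genes with a promoter the share was 11.09%, and over their 15401 windows it was 9.27%. A D-box was present in 1 of the 14 genes that rose, Per3, in 0 of the 12 that fell and in 0.88% of all genes with a promoter. The cAMP response element was found in 2 of the 14 (14.29%), Hlf and Sphk2, in 0 of the 12 and in 3.4% of all, and the CArG box in 0 of both sets and 1.62% of all. Of the immediate early genes that fell, only Csrnp1, Dusp6 and Nr4a1 had such a promoter. Klf10, Trib1, Sik1 and Arc had none and were not searched. None of these motifs overlapped another in the windows printed here. A match of letters is a description and says nothing about binding. The 250 bases before the start are shown for 3 genes with an E-box and for Per3, 5′ to 3′ on the strand of the gene, with E-box or D-box letters in capitals.
Ciart, chr3:95882229-95882478, minus strand: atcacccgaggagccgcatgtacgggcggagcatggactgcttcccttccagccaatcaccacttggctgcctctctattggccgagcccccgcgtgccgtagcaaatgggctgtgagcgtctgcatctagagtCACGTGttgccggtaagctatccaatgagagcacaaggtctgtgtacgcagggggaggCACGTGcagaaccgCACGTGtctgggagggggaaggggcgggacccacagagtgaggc
Cry1, chr10:85185055-85185304, minus strand: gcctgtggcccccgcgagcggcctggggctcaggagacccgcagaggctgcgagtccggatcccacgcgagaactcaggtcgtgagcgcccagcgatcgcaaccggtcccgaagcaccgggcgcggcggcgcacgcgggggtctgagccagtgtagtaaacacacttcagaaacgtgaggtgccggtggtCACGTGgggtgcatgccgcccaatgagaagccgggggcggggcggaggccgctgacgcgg
Tef, chr15:81802423-81802672, plus strand: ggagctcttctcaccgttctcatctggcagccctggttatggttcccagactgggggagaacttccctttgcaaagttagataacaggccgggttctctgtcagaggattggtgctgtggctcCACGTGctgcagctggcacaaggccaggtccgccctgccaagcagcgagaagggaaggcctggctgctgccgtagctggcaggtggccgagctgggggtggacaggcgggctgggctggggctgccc
Per3, chr4:151044666-151044915, minus strand: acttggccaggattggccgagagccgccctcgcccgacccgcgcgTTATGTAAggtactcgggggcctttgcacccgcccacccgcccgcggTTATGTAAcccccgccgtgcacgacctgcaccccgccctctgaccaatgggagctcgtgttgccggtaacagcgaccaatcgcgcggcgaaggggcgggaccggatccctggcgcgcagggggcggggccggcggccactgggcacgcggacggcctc
Ciart held 3 E-boxes, whose first bases lay 116, 58 and 44 bases before the start. Cry1 held 1 at 60 bases and Tef 1 at 127 bases, and a second annotated start of Tef had 1 at 138 bases. Per3 had no CACGTG in the window and 2 copies of the same D-box, at 205 and 158 bases.

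Immediate early genes were lower with morphine. Of 32 tested members of the immediate early lists, 7 fell and 0 rose: Klf10, Csrnp1, Dusp6, Nr4a1, Trib1, Sik1 and Arc. Over all genes, 0.112% fell and 0.101% rose. A further 9 of the 32 were lower only at an unadjusted p under 0.05, so that 16 were lower at that mark in all, against 3.62% of all genes. Negative fold changes were found in 29 of 32. The median log2 fold change was -0.35, against 0.0 over all genes. In 11 members the morphine libraries all lay below the saline libraries, against 0.671% of all genes.

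The firmest calls were a transcription factor pair and a phosphatase. Klf10 (ENSMUSG00000037465.11), a zinc finger factor induced by TGF-beta, was at 47.1, 50.4, 41.6, 68.2 and 47.7 CPM with saline and at 31.1, 34.7, 31.9, 28.8 and 36.6 CPM with morphine. Saline library 4 stood above the rest of its group and the groups did not overlap. Klf10 fell by 0.65 ± 0.1 (SE) on the log2 scale (edgeR adjusted p = 0.000125). Csrnp1 (ENSMUSG00000032515.9), a nuclear protein induced by AXIN1, was at 13.9, 16.3, 15.7, 11.3 and 17.5 CPM with saline and at 9.33, 6.71, 8.17, 7.62 and 8.26 CPM with morphine. It came down to 0.54 times its saline level, with a log2 fold change of -0.9 ± 0.14 (SE; edgeR adjusted p = 0.000322), and its exons overlap a gene on the opposite strand. Dusp6 (ENSMUSG00000019960.9), the phosphatase that switches off ERK kinases and is itself induced by them, was at 78.6, 78.8, 85.0, 87.8 and 80.8 CPM with saline and at 48.2, 53.3, 62.3, 66.7 and 57.9 CPM with morphine. The lowest saline library was well above the highest morphine library, and the log2 fold change was -0.51 ± 0.09 (SE; edgeR adjusted p = 0.00175).

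The largest fall in this list was that of Arc, which encodes a cytoskeletal protein of active synapses. Arc was at 184, 202, 153, 254 and 215 CPM with saline and at 54.2, 68.6, 96.0, 96.9 and 142 CPM with morphine, so that morphine library 5 came close to saline library 3. The mean fell from 202 ± 37.4 to 91.6 ± 33.6 CPM (SD, n = 5 each), a log2 fold change of -1.14 ± 0.24 (SE; edgeR adjusted p = 0.0358). Nr4a1, an orphan nuclear receptor, was at 135, 129, 104, 154 and 121 CPM with saline and at 68.7, 65.4, 77.4, 72.4 and 93.7 CPM with morphine. As for Arc, morphine library 5 was the highest of its group and saline library 3 the lowest of the other. Its log2 fold change was -0.77 ± 0.15 (SE; edgeR adjusted p = 0.0229). Sik1, a kinase induced by cAMP, fell by 0.76 ± 0.17 on the log2 scale from 18.4 ± 2.81 to 10.9 ± 1.63 CPM, and the pseudokinase Trib1 by 0.49 ± 0.11 from 28.9 ± 2.93 to 20.5 ± 1.43 CPM (SE for changes and SD for levels, n = 5 each; edgeR adjusted p = 0.0345 and 0.0284), both without overlap.

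Genes that are widely used as activity markers did not all follow. Fos was at 29.8, 22.6, 19.4, 42.1 and 28.8 CPM with saline and at 14.6, 17.1, 16.1, 18.1 and 22.9 CPM with morphine. Its groups overlapped through morphine library 5, and the log2 fold change of -0.69 ± 0.24 (SE) did not pass (edgeR adjusted p = 0.447). Among 7 AP-1 subunits, the Fos and Jun partners, 0 were called, against 0.213% of all genes. At an unadjusted p under 0.05, 3 were lower, against 3.62% of all genes. Dusp1, a phosphatase of the same family as Dusp6, was at -0.62 ± 0.15 (SE; adjusted p = 0.0787), with 39.8 to 49.7 CPM with saline and 22.3 to 40.3 CPM with morphine. Egr1 was at -0.05 ± 0.2 (SE; 0.983), Npas4 at 0.2 ± 0.37 (SE; 0.96) and Btg2 at -0.07 ± 0.21 (SE; 0.979). For Npas4 single libraries reached 34.5 CPM with saline and 43.8 CPM with morphine, while the medians were 15.1 and 19.0 CPM.

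The count of 7 immediate early genes was 4 without saline library 1 or 2 or morphine library 1, and 3 without saline library 4 or morphine library 2, 3 or 4. Arc lost its call without any library except saline library 3 and morphine library 5 (edgeR adjusted p of up to 0.151). Nr4a1 lost it without saline libraries 1, 2 and 4 and morphine libraries 1 to 4 (up to 0.0974), Sik1 without saline libraries 3 to 5 and morphine libraries 2 to 5 (up to 0.143), and Trib1 without saline libraries 1 to 4 and morphine libraries 1 to 4 (up to 0.129).

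**Figure D3:**
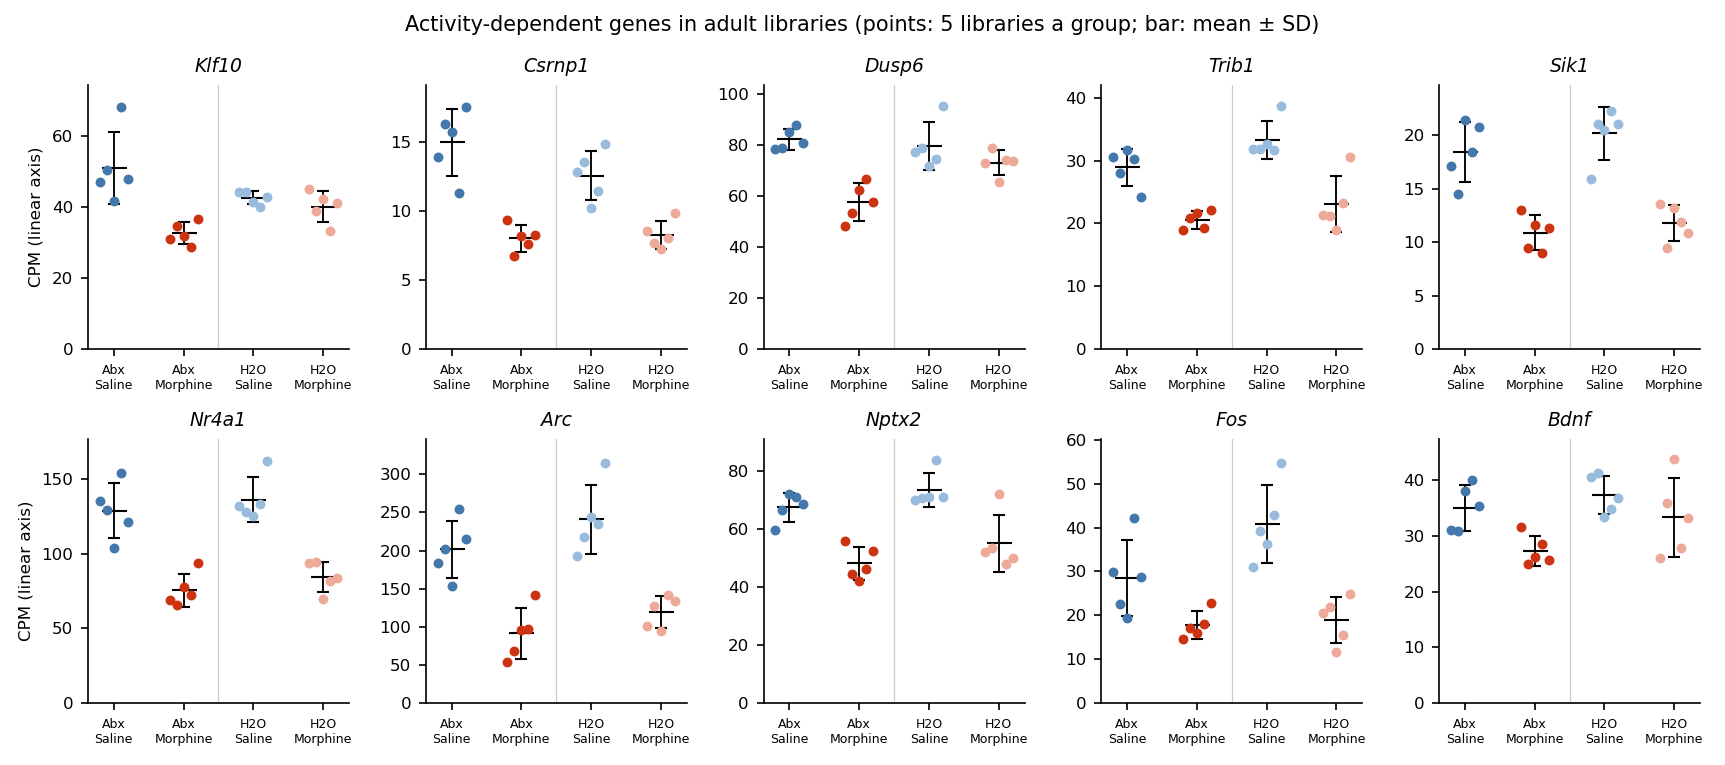
Points are the CPM of single adult libraries on linear axes from 0, with bars for the mean ± SD of 5 libraries, for activity-dependent genes on antibiotics (left of the line in each panel) and on water (right of it). Klf10 and Dusp6 are lower with morphine on antibiotics while their water groups overlap, whereas Arc, Nr4a1, Sik1 and Csrnp1 are lower in both.

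Activity-regulated genes whose products are secreted or act at synapses had mostly negative fold changes, in 13 of 14 members with a median of -0.19. Of the 14, 1 fell, against 0.112% of all genes, and 8 were lower at an unadjusted p under 0.05, against 3.62%. In 2 members the morphine libraries all lay below the saline libraries, against 0.671% of all genes. Nptx2, a secreted pentraxin that clusters AMPA receptors, was at 59.5, 66.3, 71.9, 70.9 and 68.6 CPM with saline and at 55.7, 44.3, 42.0, 46.3 and 52.3 CPM with morphine. Morphine libraries all lay below the saline libraries, and Nptx2 fell by 0.49 ± 0.1 (SE) on the log2 scale (edgeR adjusted p = 0.0154). Without morphine library 2 or 3 it lost its call (up to 0.0529). Bdnf, the neurotrophin gene, was between 30.9 and 40 CPM with saline and between 24.9 and 31.5 CPM with morphine, and its log2 fold change of -0.35 ± 0.11 (SE) did not pass (edgeR adjusted p = 0.249).

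Other genes that fell lie outside these lists, apart from Cdkn1a, which is in the glucocorticoid-responsive list. Stk40 (ENSMUSG00000042608.16), a pseudokinase, was at 41.2, 45.6, 40.5, 53.1 and 44.7 CPM with saline and at 37.0, 31.5, 33.4, 31.0 and 30.1 CPM with morphine, without overlap (log2 -0.47 ± 0.08, SE; edgeR adjusted p = 0.00109). Cdkn1a (ENSMUSG00000023067.15), the cell cycle inhibitor p21, was at 25.5, 23.7, 24.8, 32.4 and 24.4 CPM with saline and at 21.1, 15.1, 12.9, 16.7 and 19.7 CPM with morphine. Saline library 4 stood out from its group and every morphine library lay below all saline libraries (log2 -0.62 ± 0.11, SE; edgeR adjusted p = 0.00136); its exons overlap a gene on the opposite strand. Spry4, an inhibitor of receptor tyrosine kinase signalling, fell by 0.47 ± 0.11 (SE), and Pmepa1, an inhibitor of TGF-beta signalling, by 0.27 ± 0.06 (SE) on the log2 scale, the latter at an adjusted p of 0.04999. Smad3, a transducer of TGF-beta signals, rose by 0.27 ± 0.06 (SE; 0.038). Fabp7, a fatty acid binding protein of astrocytes and progenitors, fell from 11.8 ± 1.97 to 6.99 ± 1.2 CPM, the lipoprotein lipase gene Lpl from 17.0 ± 2.56 to 12.2 ± 1.88 CPM and Lcat, which esterifies cholesterol, from 17.5 ± 1.23 to 12.3 ± 1.63 CPM (adjusted p by edgeR 0.0345, 0.0453 and 0.038; SD, n = 5 each). Further genes that fell were the deubiquitinase gene Otud1, the NF-kB subunit gene Rel and the adhesion gene Nectin3, with log2 fold changes of -0.33, -0.76 and -0.42.

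Casq2, which encodes a calcium-storing protein, had the largest fold change of the 38 genes and one of the lowest levels. It was at 2.16, 3.56, 2.37, 2.67 and 2.49 CPM with saline and at 0.75, 0.853, 0.408, 1.08 and 1.47 CPM with morphine. All values were above what 3 counts stand for, and the groups did not overlap (log2 -1.53 ± 0.33, SE; edgeR adjusted p = 0.0224). It lost its call without saline library 2 or morphine library 1, 2 or 3 (up to 0.113). Of the genes in the paragraph above, Stk40 and Cdkn1a kept their calls without each library. Without saline library 2, or without morphine library 2, Spry4, Pmepa1, Fabp7, Lpl, Lcat, Otud1, Rel and Nectin3 all lost theirs, and each of them lost it without 6 to 9 of the 10 libraries, with adjusted p-values of up to 0.243 for Pmepa1 and Nectin3, 0.246 for Spry4 and 0.221 for Lpl. Smad3 lost its call without 8 libraries, all but saline library 3 and morphine library 2 (up to 0.2).

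Outside the clock, the genes that rose included a cold-inducible RNA-binding protein and its antisense gene. Rbm3os (ENSMUSG00000055188.13) was at 12.5, 13.6, 10.9, 11.8 and 10.8 CPM with saline and at 15.5, 16.9, 20.8, 19.5 and 16.9 CPM with morphine, without overlap (log2 0.59 ± 0.11, SE; edgeR adjusted p = 0.00175). Rbm3, an RNA-binding protein induced by mild cooling, was at 62.3, 61.7, 53.9, 62.1 and 57.9 CPM with saline and at 76.0, 77.5, 67.4, 78.5 and 81.8 CPM with morphine, again without overlap (log2 0.35 ± 0.08, SE; edgeR adjusted p = 0.0252). Their exons overlap on opposite strands. How reads of the shared stretch were assigned is not known, so both values are uncertain. Rbm3 lost its call without saline library 2, 3 or 5 or morphine library 2, 4 or 5 (up to 0.143). The other cold-inducible gene of this list, Cirbp, was at 51.1 to 57.2 CPM with saline and at 57.3 to 68.2 CPM with morphine and did not pass (log2 0.22 ± 0.1, SE; edgeR adjusted p = 0.637).

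Mthfd1l, an enzyme of mitochondrial one-carbon metabolism, was at 13.6, 13.0, 11.3, 16.3 and 14.4 CPM with saline and at 18.7, 17.7, 20.1, 21.4 and 20.4 CPM with morphine (log2 0.52 ± 0.11, SE; edgeR adjusted p = 0.0177). Its groups did not overlap, but the call was lost without saline library 2 or 3 or morphine library 3 or 4 (up to 0.113). The sphingolipid genes Sphk2, a sphingosine kinase, and Smpd3, a neutral sphingomyelinase, rose 1.23-fold and 1.21-fold (edgeR adjusted p = 0.0268 and 0.0445), and the exchange factor gene Net1 rose 1.32-fold (0.0464). Sphk2 lost its call without saline libraries 1, 2, 3 and 5 and morphine libraries 3 and 4, Smpd3 without any library except saline library 3 and morphine library 1, and Net1 without saline libraries 2 to 5 and morphine libraries 2, 4 and 5, with adjusted p-values of up to 0.212, 0.183 and 0.357. Sphk2 and Smpd3 also overlap exons of genes on the opposite strand. The little-described genes 2010111I01Rik and Gm10390, which lie outside the rule for named genes and are given because they complete the 38, rose 1.37-fold and 1.69-fold (edgeR adjusted p = 0.0369 and 0.0464), share exonic sequence with genes on the opposite strand and lost their calls without 9 and 8 of the 10 libraries.

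Glucocorticoid-responsive genes moved in both directions. Fkbp5, a co-chaperone of the glucocorticoid receptor that the receptor induces, was at 26.3, 23.7, 26.1, 25.1 and 34.3 CPM with saline and at 34.4, 42.6, 32.4, 34.7 and 47.0 CPM with morphine. Saline library 5 stood above the rest of its group and reached into the morphine range. Fkbp5 rose 1.41-fold (log2 0.49 ± 0.11, SE; edgeR adjusted p = 0.0358), and lost its call without saline libraries 1 to 4 and morphine libraries 2 and 5 (up to 0.213). Of the 21 tested genes of this list, 1 rose, 1 fell (Cdkn1a), and 6 were higher and 4 lower at an unadjusted p under 0.05. Over all genes tested, 3.41% were higher and 3.62% lower at that mark. The median log2 fold change of the list was 0.04. The other members higher at that mark included Zbtb16 at 0.38 ± 0.09 (SE; adjusted p = 0.0552) and Hif3a at 0.74 ± 0.2 (SE; 0.135), whereas Sgk1 was at -0.09 ± 0.12 (SE; 0.941). Per1 and Dusp1, which also belong to this list, are given above, both with negative fold changes.

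No gene of the opioid system passed the test. Oprm1 was read at 2.94, 4.08, 3.16, 4.59 and 5.52 CPM with saline and at 3.11, 5.12, 3.68, 4.11 and 4.19 CPM with morphine, and the groups overlapped throughout. Its log2 fold change was -0.01 ± 0.22 (SE; edgeR adjusted p = 0.998), and differences within this error were not detectable at this depth. The delta and kappa receptor genes Oprd1 and Oprk1 were at -0.13 ± 0.09 and -0.18 ± 0.27 (SE; adjusted p = 0.856 and 0.952). The nociceptin receptor gene Oprl1 was at 0.19 ± 0.08 (SE; 0.587), higher at an unadjusted p under 0.05 and without overlap of the groups. Over all genes, 3.41% were higher at that mark and 0.688% were higher without overlap. The peptide precursors Penk and Pdyn were at -0.18 ± 0.15 and -0.04 ± 0.1 (SE; 0.897 and 0.973). Downstream of the receptor, 0 of 20 genes for adenylyl cyclases and protein kinase A, 0 of 24 G protein regulators and arrestins and 0 of 9 dopamine signalling genes were called, with median log2 fold changes of 0.0, -0.03 and -0.08. Ionotropic receptor genes for glutamate (10) and GABA (12) gave 0 calls, with medians of -0.04 and -0.02. Over all genes tested 0.213% were called, so 0 calls in lists of these sizes is near that share.

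Stress, sterol and immune lists gave 0 calls by the edgeR test. Over all genes 0.213% were called, which for lists of these sizes is near 0 calls. The 18 endoplasmic reticulum chaperones had a median log2 fold change of -0.02, with Hspa5 at -0.05 ± 0.07 (SE; edgeR adjusted p = 0.95). The 17 cytosolic heat shock genes were at -0.05 and the 21 cholesterol synthesis genes at -0.04, with Hmgcs1, the first committed step towards mevalonate, at -0.08 ± 0.08 (SE; 0.912). At an unadjusted p under 0.05, 3 of the 17 and 1 of the 21 were lower and 0 of both higher. The 15 toll-like receptor and NF-kB genes were at -0.12, with 1 member lower at an unadjusted p under 0.05, and the 19 interferon-responsive genes at 0.0. Of 13 mitochondrially encoded transcripts, 4 were lower at that mark, against 3.62% of all genes, and 0 were called. The 58 nuclear-encoded respiratory chain genes had a median of 0.03. The 11 histone deacetylase genes and 13 perineuronal net genes also gave 0 calls, with medians of -0.02 and -0.07.

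Cell type markers gave 0 calls in the 14 marker lists, near the share of 0.213% over all genes. Some lists leaned one way over most members. All 11 deep cortical layer markers had positive fold changes (median 0.17), as did 14 of 15 markers of mature oligodendrocytes (median 0.14), where Mbp, the myelin basic protein gene, was at 0.22 ± 0.16 (SE; edgeR adjusted p = 0.871). Negative values were found in 14 of 15 microglial markers (median -0.12) and 11 of 13 astrocyte markers (median -0.1). The summed oligodendrocyte level ranged from 1034 to 1541 CPM with saline and from 987 to 1812 CPM with morphine, and that of microglia from 472 to 566 and from 439.8 to 489 CPM, so both overlapped. All 5 red blood cell markers were positive, with a median of 0.38, and 3 were higher at an unadjusted p under 0.05, against 3.41% of all genes. Hbb-bs, a beta globin gene, was between 19.1 and 25.2 CPM with saline and between 24.9 and 36.2 CPM with morphine (log2 0.54 ± 0.14, SE; adjusted p = 0.122), and reads of globin genes cannot be assigned with certainty among near-identical copies.

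**Figure D4:**
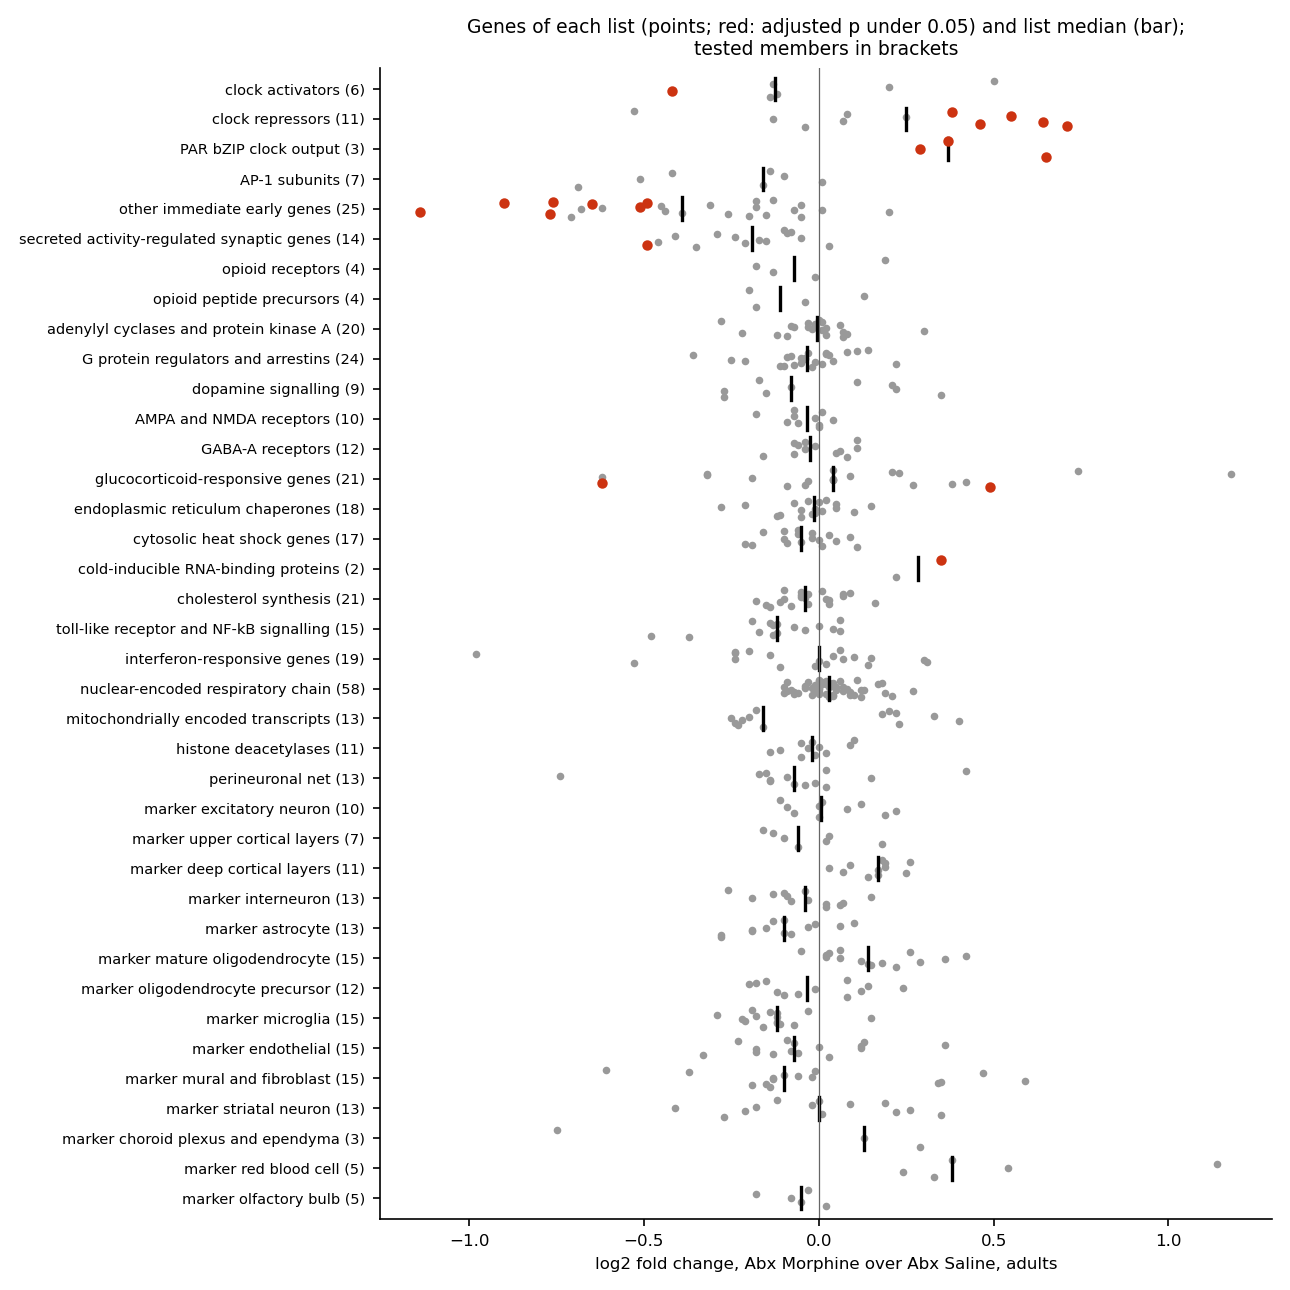
Each point is 1 tested gene of a list, placed by its log2 fold change of morphine over saline in adults on antibiotics, with red points for genes called at an adjusted p under 0.05 and a black bar for the median of the list. Red points sit in the clock, immediate early, secreted activity-regulated, glucocorticoid and cold-inducible lists, and the marker lists have none.

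Without antibiotics, adults given morphine were compared with adults given saline on water. There 85 genes were called (0.475%), 47 higher and 38 lower. Of the 38 genes called under antibiotics, 37 had the same direction on water and 17 were called in both, which is 44.7% of the 38 and 20% of the 85. Those 17 held Dbp, Tef, Hlf, Cry1, Per2, Bhlhe41, Ciart, Csrnp1, Cdkn1a, Nptx2, Trib1, Sik1, Nr4a1, Arc, Mthfd1l, Sphk2 and Net1. The size of the log2 fold change was smaller on water in 32 of the 38, with medians of 0.49 and 0.3, but the 38 were chosen by the comparison on antibiotics. Of the 32 immediate early genes, 16 were called lower on water (median log2 fold change -0.56), against 7 on antibiotics (-0.35). Of the 20 clock genes, 10 were called higher and 0 lower on water (median 0.34), against 8 and 1 on antibiotics (0.23). The 10 included 1 member of the activator list, in which 0 were called higher on antibiotics. Fos, not called on antibiotics, was called on water at -1.1 ± 0.23 (SE; edgeR adjusted p = 0.0156). In Dbp the change was near the same, 0.65 with antibiotics and 0.58 on water, and in Hlf it was 0.37 and 0.49. The number called on water was 30 without water-morphine library 1 and 153 without water-morphine library 4.

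Whether morphine acted differently on antibiotics was tested gene by gene as the interaction in adults. With edgeR, 0 of 17880 genes (0.0%) were called, 1214 (6.79%) had an unadjusted p under 0.05, and the lowest adjusted p was 0.104. DESeq2 called 1 gene and limma-voom 1, in each case Btg2. With edgeR 1 gene, again Btg2, was called without water-morphine library 5. The gene that stood first was thus Btg2, an antiproliferative immediate early gene. It was at 11.3, 7.74, 10.2, 12.8 and 9.95 CPM with saline and 10.3, 7.57, 8.99, 8.8 and 13.9 CPM with morphine on antibiotics. On water it was at 25.3, 29.4, 34.9, 32.8 and 25.1 CPM with saline and at 5.46, 10.3, 7.38, 10.6 and 14 CPM with morphine. The water-saline group thus stood apart from the other 3 groups, whose ranges overlapped. The log2 fold changes were -0.07 ± 0.21 on antibiotics and -1.62 ± 0.2 on water, a difference of 1.55 ± 0.29 (SE; edgeR unadjusted p = 5.81e-06, adjusted p = 0.104). Gadd45g, a stress-induced immediate early gene, had the same layout, with -0.05 ± 0.17 on antibiotics, -1.03 ± 0.16 on water and a difference of 0.98 ± 0.23 (SE; unadjusted p = 9.39e-05, adjusted p = 0.391).

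The opposite layout was found in Klf10 and Dusp6. On water, Klf10 was at 44.2, 44.2, 41.5, 40.1 and 42.9 CPM with saline and at 45.0, 38.9, 42.2, 33.3 and 41.0 CPM with morphine, with overlapping groups. The difference between its fold changes on antibiotics and on water was -0.56 ± 0.13 (SE; edgeR unadjusted p = 0.000131, adjusted p = 0.391). For Dusp6, whose fold change on water was -0.12 ± 0.09, it was -0.39 ± 0.13 (SE; unadjusted p = 0.00369, adjusted p = 0.529). Rbm3os was at 0.59 ± 0.11 on antibiotics and -0.05 ± 0.11 on water, a difference of 0.63 ± 0.15 (SE; unadjusted p = 0.000111, adjusted p = 0.391). None of these passed the test over all genes. Of the 38 genes, 13 had an unadjusted interaction p under 0.05 and all 13 had the larger fold change on antibiotics. Because the 38 were chosen for their fold changes on antibiotics, this count is a description. Among the other genes with small interaction p, the transcription factor gene Arid3b differed by -1.04 ± 0.24 and the ERK-activated kinase gene Rps6ka3 by -0.42 ± 0.1 (SE; adjusted p = 0.391 for both).

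**Figure D5:**
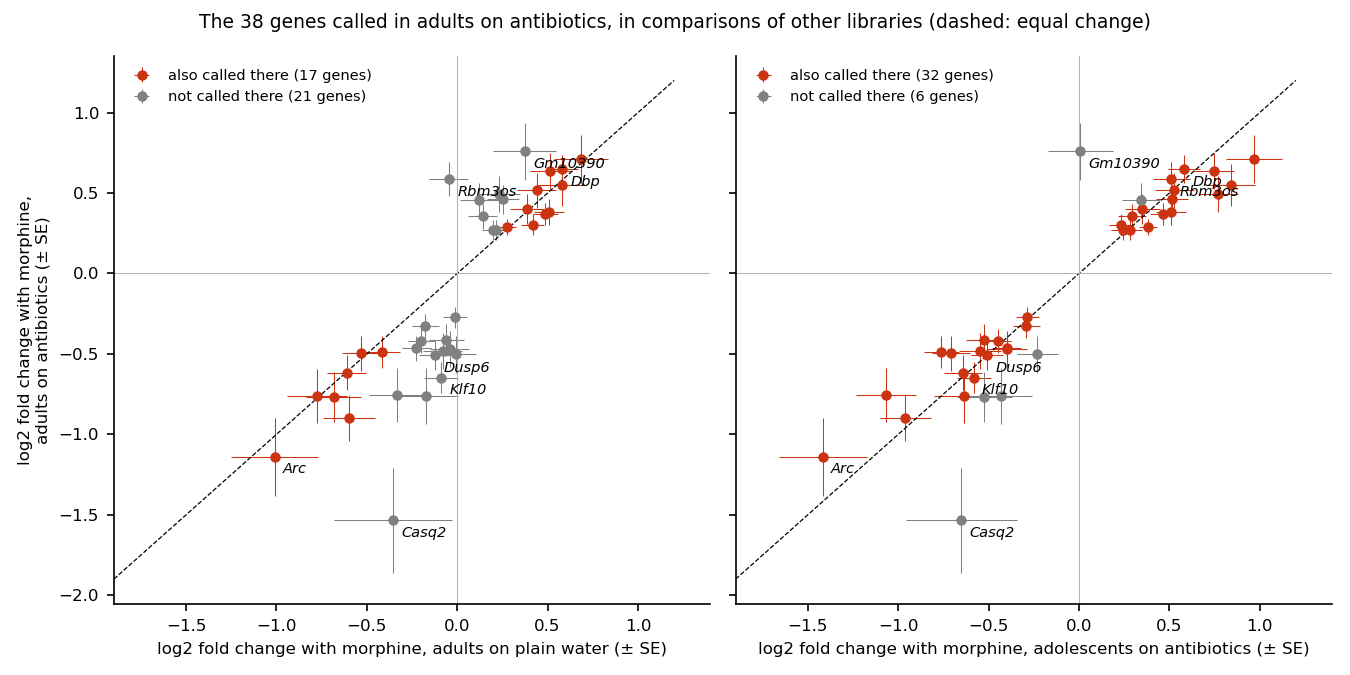
Each point is 1 of the 38 genes called in adults on antibiotics, with its log2 fold change there on the vertical axis and its log2 fold change in adults on water (left) or in adolescents on antibiotics (right) on the horizontal axis, error bars for the SE and a dashed line for equal change. Red points are also called in the second comparison, 17 on water and 32 in adolescents, and Klf10, Dusp6 and Rbm3os lie near 0 on the horizontal axis in the left panel but not in the right.

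In adolescents on antibiotics 522 genes (2.92%) were called for morphine against saline, and all 38 genes called in adults had the same direction there. Of these, 32 were called in both, which is 84.2% of the 38 and 6.1% of the 522. The median size over the 38 genes was 0.49 in adults and 0.51 in adolescents. Klf10 was at -0.65 and -0.58, Dusp6 at -0.51 and -0.51, Rbm3os at 0.59 and 0.51, Arntl at -0.42 and -0.45 and Arc at -1.14 and -1.42, adults first. The 6 genes not called in adolescents were Nr4a1, at -0.52 with an adjusted p of 0.0534, Casq2, 2010111I01Rik, Lcat, Rel and Gm10390. Gm10390 was at 0.76 ± 0.18 in adults and 0.01 ± 0.18 in adolescents (SE), the single member of the 38 whose difference between ages had an unadjusted p under 0.05 (0.00457; edgeR adjusted p = 0.646). The number called in adolescents was 214 without antibiotics-morphine library 2 and 970 without antibiotics-morphine library 5 of that age.

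The age difference was tested in the same way. With edgeR 0 genes (0.0%) were called and 1151 (6.44%) had an unadjusted p under 0.05, DESeq2 and limma-voom called 0, and the lowest adjusted p was 0.209. That gene was Frmd6, a regulator of Hippo signalling, at -0.18 in adults and 0.36 in adolescents, a difference of -0.54 ± 0.12 (SE). Next came the antisense gene Man2c1os, with a difference of -0.78 ± 0.18 (SE; adjusted p = 0.269), and then Stard4, a sterol transporter, at 0.01 in adults and -0.59 in adolescents, a difference of 0.6 ± 0.14 (SE; adjusted p = 0.308). Without 1 library edgeR called Frmd6 (adolescent antibiotics-saline library 5) or 9530059O14Rik (adult antibiotics-morphine library 5). Lists that gave 0 calls in adults held calls in adolescents. There 7 of 21 cholesterol synthesis genes, 5 of 18 endoplasmic reticulum chaperones and 2 of 17 heat shock genes fell, against 1.34% of all genes there. Hmgcs1 was at -0.08 ± 0.08 in adults and -0.46 ± 0.08 in adolescents, a difference of 0.38 ± 0.12 (SE; unadjusted p = 0.0019, adjusted p = 0.605). Hspa5 was at -0.05 ± 0.07 and -0.37 ± 0.07, a difference of 0.31 ± 0.1 (SE; unadjusted p = 0.00384, adjusted p = 0.646). These differences between ages did not pass the test over all genes.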

How the data were processed

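RNA of the prefrontal cortex was sequenced after polyA selection and library preparation with commercial kits, per the labels. The deposited file is 1 table of raw counts with no normalization, which covers 56980 genes, and the submitters' processing notes name STAR 2.7.10a, DESeq2 and the mouse build mm10. How strand was handled and which annotation was used in counting is not given in the sources. Gene identifiers were matched without version to the symbols of a reference annotation, for 52073 genes (91.4%), and because only 35 matched with their version no gene coordinates are printed. The table holds 0 rows without a gene.

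The tests used edgeR 4.0.16 in R 4.3.3. Genes passed filterByExpr (min.count 10, min.total.count 15), and counts were scaled by TMM and fitted with robust quasi-likelihood models with 1 coefficient for each of 8 groups over all 40 libraries. Contrasts were tested two-sided, with Benjamini-Hochberg adjustment across the 17880 genes tested, and called at an adjusted p under 0.05. The interactions are differences of 2 such contrasts. Adjusted p-values without a named tool are from edgeR, the SE is the log2 fold change divided by the square root of F, and CPM use TMM library sizes. The biological coefficient of variation was 9.14%.

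The text names by smallest p, up to 12 called genes in each direction at a mean of at least 1 CPM, up to 3 called members of each list, 17 genes given whatever their p, and 3 genes in each direction of each interaction. Further called genes and list members were named after their values were seen. The comparison and the lists were chosen with earlier results of these data known. Replicate numbers were checked as pairs: the same-number correlations of deviations lay between -0.059 and 0.03, so they do not pair the libraries. Alternatives were RLE scaling, no filter, a stricter filter, DESeq2 1.42.0, limma-voom (limma 3.58.1) with quality weights, a model of the compared groups alone, a replicate block and leaving out each library, and, added after the data were seen, leaving out saline library 3 and morphine library 5 together.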

Additional observations from a re-analysis of the deposited data

Results flagged for a closer look

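In 60 genes, the 2 groups of 5 libraries on antibiotics were searched for a single library far from the others, and 6 of 120 groups had one, where chance flags about 1 in 20. With saline, library 4 was the highest for Sphk2, at 62.0 CPM against 54.3 to 56.2 in the others, and for Cdkn1a, at 32.4 CPM against 23.7 to 25.5. Saline library 5 was the highest for Fkbp5, at 34.3 CPM against 23.7 to 26.3. Saline library 1 was the lowest for Derl1, at 39.3 CPM against 45.6 to 47.3. With morphine, library 1 was the highest for Hmgcs1, at 270.1 CPM against 211 to 226, and library 3 for Lcat, at 15.1 CPM against 10.9 to 12.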

How the results depend on the processing

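For morphine on antibiotics in adults the 38 calls became 61 with no filter on low counts, 58 with DESeq2, 20 without saline library 3 and morphine library 5, and 15 to 32 when 1 library was left out. The replicate block within age gave 34 calls, 31 of them among the 38. The replicate number pairs no libraries here, since in no same-numbered pair was each library the best correlated with the other. The clock genes called higher were 5 without saline library 3 and morphine library 5, and 4 to 7 without 1 library, and the immediate early genes called lower were 3 to 7 without 1 library.

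The adult interaction, with 0 calls, had 15 with no filter, 2 with the replicate block, 1 with DESeq2, 1 with limma-voom and 0 to 1 without 1 library. The age interaction, with 0 calls, had 13 with no filter, 1 without saline library 3 and morphine library 5, and 0 to 1 without 1 library. The 85 calls of adults on water became 213 with no filter, 146 with DESeq2, 251 with limma-voom, 148 when only the compared groups were fitted and 30 to 153 without 1 library. The 522 calls of adolescents on antibiotics became 1227 with limma-voom and 214 to 970 without 1 library.

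No called gene changed direction. Log2 fold changes near 0 changed sign for Oprm1 with limma-voom (0.0) and for Hspa5 without saline library 3 and morphine library 5 (0.01). When 1 library was left out, Oprm1 ranged from -0.1 to 0.13, Oprk1 from -0.3 to 0.02, Pdyn from -0.1 to 0.02, Btg2 from -0.22 to 0.01, Gadd45g from -0.14 to 0.08 and Stard4 from -0.04 to 0.05. The causes were not tested. Depth limits genes near 3 counts, or about 0.3 CPM.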
